A study of Mus musculus with 28 samples.

Results

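Neural stem cell identity genes are described here as a set of 10, taken by name: Sox2, Sox9, Olig2, Hes1, Hes5, Notch1, Nes, Vim, Fabp7 and Msi1. All 10 were found among the 21887 protein-coding genes of the reference annotation, and every summit inside a gene or within 10 kb of either end of it was taken from 11 lists of peak summits. The rule names the genes and uses no score or position, though they were proposed with earlier results of these data in view.

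Smchd1, an SMC-family protein that acts in gene silencing, was studied in neural stem cells grown from E14.5 brains of male C57BL/6 x FVB/N embryos and kept dividing with EGF and bFGF. Cells were either Smchd1 wild-type or homozygous for the null allele (Smchd1MommeD1/MommeD1). Chromatin immunoprecipitation (ChIP) with 2 libraries per genotype mapped Smchd1, H3K4me3 and H3K27me3, and capture with a methyl-CpG binding domain (MBD), with 3 libraries per genotype, mapped methylated DNA. Ctcf was mapped with 2 libraries each in untransduced wild-type, non-silencing shRNA-transduced wild-type and untransduced null cells. Its background was Ctcf ChIP in wild-type cells carrying Ctcf.6 or Ctcf.7 shRNA, 1 library per hairpin, which the labels call Ctcf null although the cells were transduced with hairpins. Smchd1 ChIP in null cells was the background for Smchd1, and 1 whole cell extract per genotype for the other lists. The labels do not say whether replicate libraries came from separate embryos.

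Peaks were called after pooling the libraries of each group, so the values below carry no replicate error and no difference between genotypes could be tested. A summit is the single base at the top of a peak, and its score is the authors' −log10 of p or q. Scores rank summits within a list and are not compared as levels between lists. On assembled chromosomes the lists ran from 77 summits (null H3K27me3) to 156188 (MBD, list named for wild type), and the reads behind them are not known. The MBD lists are called by their own names, because sample titles and list names give opposite genotypes.

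Neural stem cells of the embryonic brain divide while keeping a progenitor state. Sox2 and Sox9 are SRY-box transcription factors of that state, and Olig2 is a bHLH factor of ventral progenitors and the oligodendrocyte lineage. Notch1 is a receptor whose released intracellular domain acts with Rbpj on the promoters of Hes1 and Hes5, bHLH repressors that hold back neuronal differentiation. Nes and Vim are intermediate filament proteins, Fabp7 is the fatty acid binding protein of radial glia, and Msi1 is an RNA-binding protein that acts on translation. H3K4me3 marks active or poised promoters, H3K27me3 is laid down by Polycomb, and Ctcf anchors chromatin loops.

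Promoter sequence was at hand for 7 of the 10 genes in RefSeq (GRCm38.p6, the assembly of mm10), as 250 bases before to 50 after the start. Hes1, Sox9 and Msi1 are not among them. Hes5 and Fabp7 are shown because they hold the most and the fewest CpG dinucleotides of the 7, and Vim and Nes because a H3K4me3 summit fell inside the stretch. They lie at chr4:154960673-154960972, chr10:57784673-57784972, chr2:13574061-13574360 and chr3:87970843-87971142, each on the + strand and written 5′ to 3′ with every CpG in capitals.
Hes5: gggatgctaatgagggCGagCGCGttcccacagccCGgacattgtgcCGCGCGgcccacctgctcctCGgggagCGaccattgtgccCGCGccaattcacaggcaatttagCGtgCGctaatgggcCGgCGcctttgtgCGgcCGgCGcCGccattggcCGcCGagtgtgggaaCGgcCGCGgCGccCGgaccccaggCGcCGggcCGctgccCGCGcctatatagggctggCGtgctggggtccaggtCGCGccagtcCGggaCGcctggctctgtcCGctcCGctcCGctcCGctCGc
Fabp7: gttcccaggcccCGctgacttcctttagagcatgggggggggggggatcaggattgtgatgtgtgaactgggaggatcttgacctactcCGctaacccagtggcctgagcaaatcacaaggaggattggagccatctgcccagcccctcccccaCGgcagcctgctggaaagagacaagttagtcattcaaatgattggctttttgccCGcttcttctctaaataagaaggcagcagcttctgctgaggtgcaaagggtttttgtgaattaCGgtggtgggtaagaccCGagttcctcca
Vim: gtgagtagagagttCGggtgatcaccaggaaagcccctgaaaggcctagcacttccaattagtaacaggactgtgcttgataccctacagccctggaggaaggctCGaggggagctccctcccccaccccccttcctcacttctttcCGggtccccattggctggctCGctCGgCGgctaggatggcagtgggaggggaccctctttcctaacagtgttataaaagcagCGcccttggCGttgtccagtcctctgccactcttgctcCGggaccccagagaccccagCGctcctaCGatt
Nes: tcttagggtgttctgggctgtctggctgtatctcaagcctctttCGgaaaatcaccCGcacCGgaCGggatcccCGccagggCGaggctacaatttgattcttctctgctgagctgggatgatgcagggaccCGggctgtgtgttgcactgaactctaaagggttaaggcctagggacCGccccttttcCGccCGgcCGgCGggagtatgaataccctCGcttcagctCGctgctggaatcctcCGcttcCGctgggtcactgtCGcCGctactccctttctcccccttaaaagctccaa
Hes5 held 41 CpGs, a number that 3.35% of the 27025 promoters reach, Nes 18, Vim 11 and Fabp7 6. Sox2 held 27, Olig2 25 and Notch1 23, so that the median of the 7 was 23 against 7 over all promoters. Fabp7 was lowest of the 7 but near that overall median, its number being reached by 56.4% of promoters. Both Hes5 and Fabp7 carried H3K4me3 in both genotypes. The Rbpj core TGGGAA, searched on both strands, is in 25.5% of all promoters. It occurs in Hes5 at -82 to -77 on the printed strand and at -226 to -221 on the other strand, counted from the start of transcription at 0. It also occurs in Fabp7 at -249 to -244 on the other strand, and in none of the other 5. The N-box CACNAG that Hes proteins bind is in 42.6% of all promoters and occurs in Vim, Notch1 and Fabp7. A fixed Ctcf core motif is in 2.41% of all promoters and occurs in none of the 7. These are matches of letters and not measured sites.

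H3K4me3 was listed at all 10 genes in both genotypes. Over all protein-coding genes the same window held a wild-type summit at 67.1% and a null summit at 66.8%, and 65.9% had both. Among coding genes under 10 kb long, which 8 of the 10 are, the shares were 47.8% and 47.7%, a comparison added after the values were seen. The members had 42 wild-type and 40 null summits, with medians of 4 and 3 per gene against 1 over all coding genes in either list. That median of 1 includes genes without a summit, and among coding genes with any it was 2 in either list. For the housekeeping and the other neural stem cell genes counted below, the medians were 2.5 and 3 in either list. At least 4 summits were found at 6 members in wild type and 4 in null, against 10.5% and 11.4% of all coding genes, and at least 6 at 3 members in each list, against 2.06% and 2.46%. The nearest coding gene end belonged to the member itself for 39 of the 42 wild-type and 37 of the 40 null summits, and to Cox6a1, Pank4 or Smpdl3a for the others. Sox2, Hes1, Notch1 and Msi1 had the most summits in both lists, and Nes, Olig2, Hes5 and Vim had 3 or fewer.

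**Figure D1:**
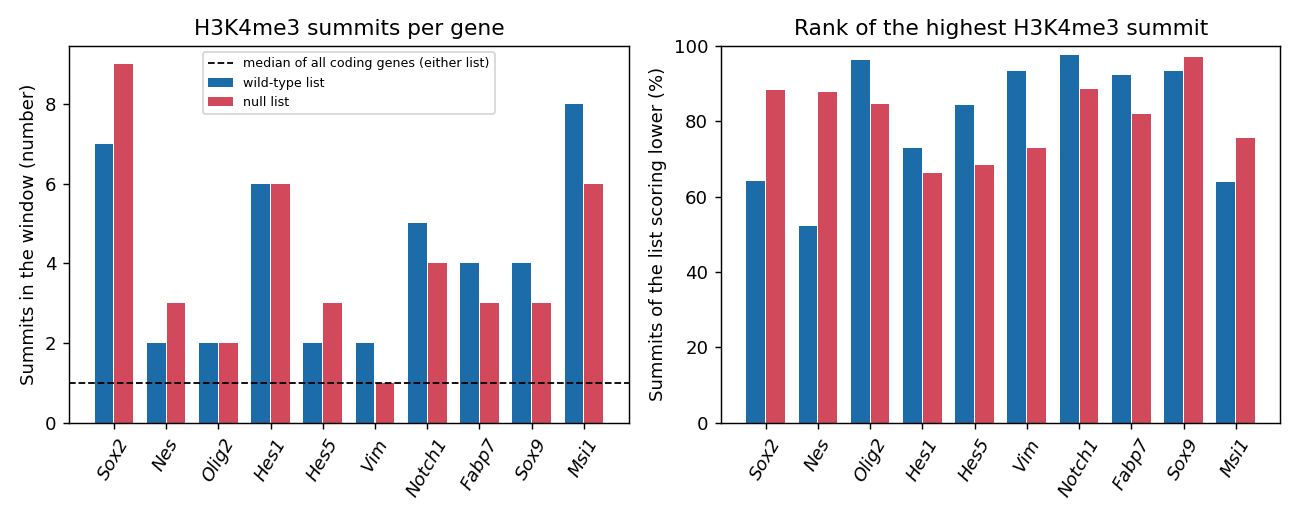
Number of H3K4me3 summits in the gene and 10 kb on each side (left) and the percentage of the list scoring below the gene's highest summit (right), for the wild-type (blue) and null (red) lists. The dashed line is the median of 1 over all coding genes. Sox2, Hes1, Notch1 and Msi1 stand highest on the left in both lists, and on the right every bar lies above 50%.

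Of the transcription factors, Sox2 (chromosome 3, 34649995 to 34652461, inside the long noncoding Sox2ot) had the most dispersed H3K4me3. The wild-type list held 7 summits and the null list 9, from 7.60 and 7.69 kb before the start to 11.7 and 12.3 kb past it, numbers that 1.01% and 0.366% of coding genes reach. The highest wild-type summit scored 35.4 and lay 3.38 kb past the start, beyond the gene's end. The highest null summit scored 52.1 and lay 1.39 kb past the start, inside the gene. No wild-type summit lay within 1 kb of that null summit, the nearest being 1995 bp away. The null summit at 6.39 kb (score 15.9) had its nearest wild-type summit 2109 bp away. The summits before the start matched closely, at 1261 bp in wild type (32.6) and 1205 bp in null (38.5). A summit is a position, and the amount of H3K4me3 between summits is not in these lists.

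Sox9 (chromosome 11, 112782210 to 112787757) had 4 wild-type and 3 null summits. The highest scored 54.0 in wild type and 64.6 in null, above 93.4% and 97.0% of their lists. They lay 758 and 524 bp past the lower-coordinate end, and a flanking summit before that end scored 32.5 and 26.7. Olig2 (chromosome 16, 91225550 to 91228677) had 2 summits in each list. They lay 217 bp past the start in wild type (57.6) and 228 bp in null (49.0), and 2106 and 2391 bp before it (50.1 and 42.7). The highest Olig2 summit scored above 96.3% of the wild-type list and 84.5% of the null list, where the highest Sox2 summit reached 64.3% and 88.2%. Olig2 therefore ranked above Sox2 in wild type and below it in null.

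Of the Notch group, Hes1 (chromosome 16, 30065357 to 30067796) had 6 summits in each list. Going up in coordinate, the wild-type summits scored 22.7, 20.8, 40.1, 8.45, 7.53 and 6.17, and the null ones 21.7, 20.7, 36.1, 6.91, 8.79 and 10.3. Each of the 6 had its counterpart within 347 bp. Hes5 (chromosome 4, 154960626 to 154962372) had a summit 697 bp past the annotated start in wild type (36.5) and 704 bp in null (31.6). The higher summits of its window, 46.8 and 38.03, lay 128 and 616 bp from an end of the neighbouring gene Pank4, and not from one of Hes5. Notch1 (chromosome 2, 26457902 to 26503822, on the - strand) had 5 wild-type and 4 null summits. The highest scored 59.6 and 52.9 and lay 478 and 1032 bp past the start. Others lay 3.38 kb in (14.2 and 10.98) and 15.6 to 17.6 kb in (4.12 to 7.23 in wild type and 4.79 and 6.82 in null), all nearer to the start than to the far end of the gene.

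Of the structural and cytoplasmic proteins, Vim (chromosome 2, 13574311 to 13582826) had the fewest summits, 2 in wild type and 1 in null. The main summit lay 170 bp past the start in wild type (53.9) and 179 bp in null (40.7). The additional wild-type summit lay 228 bp before the start, inside the printed stretch, and scored 34.1. Nes (chromosome 3, 87971093 to 87980451) had 2 and 3. Its main summit lay 195 bp past the start in wild type and 163 bp in null. That summit scored 27.7 in wild type, above 52.1% of the list, and 51.7 in null, above 87.8% of the list. The additional null summit, 223 bp before the start in the printed Nes stretch, scored 8.45. Fabp7 (chromosome 10, 57784923 to 57788450) had 4 and 3, with main summits 203 and 352 bp past the start (53.0 and 46.9). The wild-type summit without a null counterpart, 6.98, lay 254 bp from an end of the neighbouring gene Smpdl3a.

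Msi1 (chromosome 5, 115359059 to 115455698) is annotated over 96.6 kb, and its main H3K4me3 group lay inside that span. The lower end falls within the long noncoding 4930401G09Rik (115358700 to 115360123). No strand or promoter was at hand for Msi1, so whether this group marks its promoter was not tested. In wild type 3 summits stood 70.3, 70.9 and 71.6 kb from the lower end with scores of 29.5, 35.0 and 27.3. In null they stood within 37 bp of these positions with scores of 30.7, 21.7 and 25.5. The nearest annotated gene end is that of the long noncoding A930005G22Rik, which spans 115420594 to 115429504. A single wild-type summit at 39.7 kb (11.1) had no null summit within 24467 bp. The summits of 33.5 and 42.3 near the lower end lay 331 and 271 bp from an end of Cox6a1, the next coding gene.

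Across the set, 40 of 42 wild-type summits (95.2%, exact 95% interval 83.8 to 99.4%) were matched by a null summit no more than 1 kb away. The reverse held for 38 of 40 null summits (95%, 83.1 to 99.4%). The intervals are Clopper-Pearson intervals for counting error only and treat neighbouring summits as independent. Over the whole lists the shares were 92.6% and 92.2%, so the members did not stand apart in this. The 4 summits without a counterpart were those at Sox2 (2, null), Msi1 and Fabp7 (1 each, wild type). With 250 bp in place of 1 kb, 29 of each list had a counterpart.

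Breadth was measured as the span from the first to the last of neighbouring summits no more than 2 kb apart. The longest such run at each member had a median span of 1347.5 bp in wild type and 1268.5 bp in null, against 374 and 415 bp over all marked coding genes. A run of at least 2 summits was found at 7 members in wild type and 8 in null, and at 52.0% and 55.5% of marked coding genes. Hes1 had the longest wild-type run, 2414 bp (2794 bp in null), a span that 2.00% and 1.51% of marked genes reach. Sox2 had 1472 and 2470 bp, though in both lists this run began 10.2 and 10.3 kb past the start and not at the promoter, and the null run went on past the edge of the window. The longest Notch1 run (2034 and 1668 bp) lay between 15.6 and 17.6 kb past its start, and the null Hes5 run (945 bp) was nearest to an end of Pank4. The median spans therefore include runs away from the member's start. Allowing gaps of 3 kb joined the 4 null summits from before the Sox2 start to 6.39 kb past it into 7599 bp, while the wild-type run stayed at 1472 bp. With that allowance Hes1 reached 6972 and 7054 bp, all 6 summits in each list. The order of the members by breadth therefore depends on the gap, Hes1 being first in both lists at 2 kb and behind Sox2 in null at 3 kb.

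**Figure D2:**
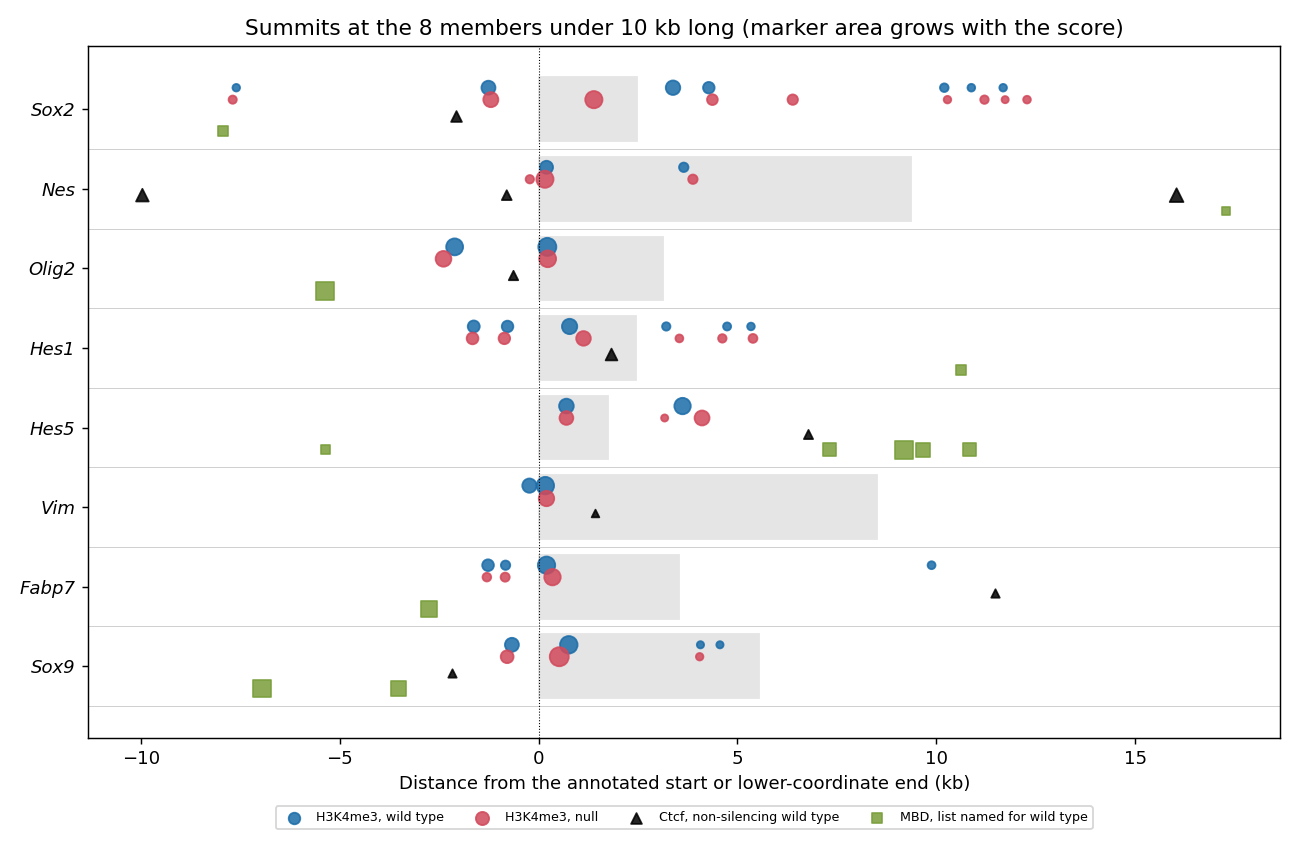
Summits of H3K4me3 (wild type blue, null red), Ctcf (non-silencing wild-type list, black triangles) and MBD (list named for wild type, green squares) against distance in kb from the annotated start, or from the lower-coordinate end for Hes1 and Sox9. Grey boxes are the annotated genes and marker area grows with the score. H3K4me3 gathers around 0 while the nearest MBD square is 2.76 kb away, at Fabp7.

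Ctcf was listed at all 10 genes in the non-silencing wild-type list, at 5 in the untransduced wild-type list and at 5 in the null list. Over all coding genes the shares were 50.6%, 29.5% and 37.2%, and among those under 10 kb 35.2%, 20.1% and 25.4%. The non-silencing list is the longest, with 20483 summits against 8292 and 11920. With the 8292 highest-scoring summits of each list, the members with Ctcf numbered 6, 5 and 5. Sox2, Nes, Olig2 and Msi1 had Ctcf in all 3 lists, as did 22.6% of coding genes, and Hes5, Notch1, Fabp7 and Sox9 in the non-silencing list only, as did 11.7%. Vim had it in both wild-type lists and not in null (5.33% of coding genes), and Hes1 in the non-silencing and null lists (11%).

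Summits of the 3 lists within 1 kb of each other formed 17 sites, of which 7 were in all 3 lists with positions 17 to 76 bp apart. At Sox2 the site lay 2092, 2084 and 2108 bp before the start in the untransduced, non-silencing and null lists, with scores of 14.8, 17.2 and 11.3. At Nes there were 3 such sites. The promoter site scored 17.3, 13.4 and 12.6 in the same order and lay 840, 797 and 873 bp before the start. The site 9.96 kb before the start scored 20.8, 25.6 and 20.7. It lay nearer to an end of the coding gene Crabp2, 7761 bp away, than to Nes. The site 16.0 kb past the Nes start, 402 bp from an end of the proteoglycan gene Bcan, scored 17.3, 31.1 and 25.7. These flanking sites were the highest-ranking Ctcf summits of the set in the non-silencing and null lists, where the last scored above 98.9% and 99.1% of the summits. In the untransduced list the site before the start ranked first and the promoter site second, just above the site near Bcan. At Olig2 the site lay 663, 645 and 683 bp before the start and scored 11.01, 11.8 and 12.8. At Olig2, Nes and Sox2 the Ctcf site nearest the start was thus in all 3 lists and stood before the start. So was the Msi1 site 41 bp before its lower end. How many coding genes have such a site was not counted. The nearest wild-type H3K4me3 summit lay 831 bp away at Sox2, 1035 bp at Nes, 880 bp at Olig2 and 9729 bp at Msi1.

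Msi1 had 4 sites. The site at its lower end, 41 bp before it, scored 12.1, 16.6 and 6.44, and the site 82.6 kb in scored 7.53, 10.9 and 9.31. A site 72.5 kb in, 878 bp from the H3K4me3 group, was in the non-silencing (7.95) and null (5.51) lists. A summit 83.8 kb in was in the non-silencing list only (10.2). Hes1 had a single site inside the gene, 1833 bp from its lower end at the same base in both lists that hold it. It scored 21.4 in the non-silencing list, above 95% of that list, and 9.94 in null, while the nearest untransduced summit lay 169332 bp away. The Hes1 site thus ranked high in 1 wild-type list and was missing from the other.

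Hes5, Notch1 and Fabp7 had Ctcf in the non-silencing list alone, and each of these summits lay nearer to an end of a neighbouring coding gene than to the member's own. The Hes5 summit (10.9) lay 3288 bp from an end of Pank4 and the Notch1 summit (15.4) lay 3354 bp from an end of Sec16a. The Fabp7 summit (8.55) lay 1845 bp from an end of Smpdl3a. The Sox9 summit (8.24) lay 2166 bp before the lower end, with the nearest untransduced and null summits 546427 and 676613 bp away. At Vim a summit 1.42 kb inside the gene was in the untransduced (5.48) and non-silencing (6.17) lists, and a further one at 5.88 kb in the untransduced list alone (7.13). Olig2 had a further summit in null alone, 7.39 kb before the start (6.51).

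The wild-type lists disagreed at 8 of the 17 sites, and null differed from both wild-type lists at 2, the site absent from null at Vim and the null summit at Olig2. Taken by pairs of lists, untransduced wild type and null differed at 5 sites and non-silencing wild type and null at 7. Neither number exceeds the 8 between the wild-type lists. Of the 15 non-silencing summits, 8 had an untransduced counterpart and 9 a null counterpart, against 35.5% and 44.7% of the whole non-silencing list.

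**Figure D3:**
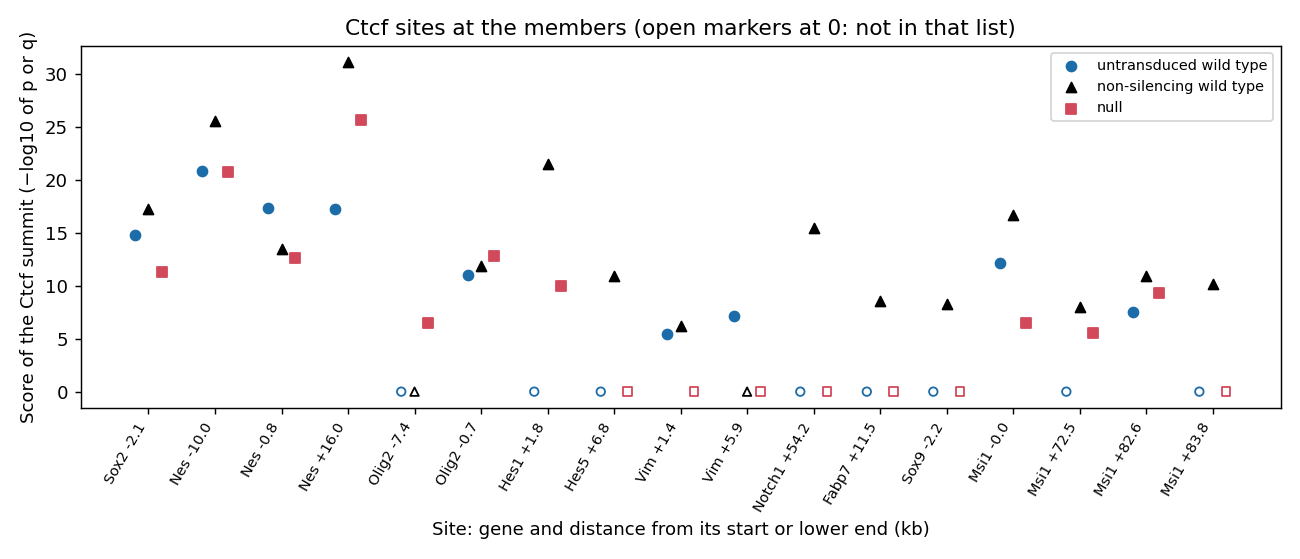
Scores of Ctcf summits (vertical axis, −log10 of p or q) at the 17 sites of the members, named by gene and distance in kb from the start or lower end. Filled markers are the untransduced wild-type (blue circles), non-silencing wild-type (black triangles) and null (red squares) lists, and open markers at 0 mean that the site is not in that list. The 3 Nes sites and the Sox2 site are filled in all lists, and 5 sites are filled for the non-silencing list alone.

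Methylated DNA was listed in the window of 9 members in the list named for wild type and of 7 in the list named for null, against 82.1% and 79.1% of coding genes (66.6% and 62.2% of those under 10 kb), so the shares were near the background. Both lists held a summit at 7 members and at 78.8% of coding genes. The median was 1 summit per member in either list, against 4 and 3 over all coding genes. Among coding genes under 10 kb the median was 1 in each list, as it was for the 8 members of that length. Vim had none in either list, and Nes and Hes1 had 1 low summit each (9.89 and 14.1) in the list named for wild type. Sox2 had 1 in each list, 7.93 and 7.95 kb before the start, with scores of 14.2 and 8.00. Olig2 had 1 at 5.37 and 5.35 kb before the start (54.6 and 50.2), Fabp7 1 at 2.76 and 2.75 kb before it (48.4 and 36.8), and Sox9 2 before its lower end (52.2 and 35.1, against 31.6 and 27.3). Hes5 had 5 in each list, 4 of them inside Pank4 and the other 5.35 kb before the Hes5 start (11.04 and 8.96).

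No MBD summit lay closer than 2753 bp to the start or lower end of any member, and the median distance from it to the nearest was 5362 bp in the list named for wild type and 5340.5 bp in the list named for null. The median distance from it to the nearest H3K4me3 summit was 574 bp in wild type and 614 bp in null. The same distances were not measured over all coding genes, so whether the members differ from them in this was not tested. Of the 57 MBD summits of the list named for wild type, 2 lay no more than 1 kb from wild-type H3K4me3, and over the whole list 0.823% did. The closest approach was 335 bp, at the low H3K4me3 summit that lies 7.60 kb before Sox2. The other of the 2 was the MBD summit 15.2 kb inside Notch1 (10.8).

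Notch1 and Msi1 held most of the MBD summits, 16 and 29 of the 57 in the list named for wild type and 15 and 20 of the 45 in the other. At Notch1 a run of 14 summits in each list stretched from 22.3 to 43.0 kb past the start in the list named for wild type (22.2 to 43.0 in the other), with top scores of 91.3 and 71.3. The highest lay 26.8 kb in for the list named for wild type, above 99.6% of that list, and 36030 bp in for the other, above 98.5%. All H3K4me3 of Notch1 lay nearer the start than this run. MBD summits outside the run lay among the H3K4me3 summits. Both lists held one 5.14 kb in (12.1 and 8.22). The list named for wild type held another 15.2 kb in (10.8), beside the H3K4me3 summit 15.6 kb in. At Msi1 a run of 11 (list named for wild type) and 10 (list named for null) summits lay 81.5 to 93.2 kb from the lower end, beyond the H3K4me3 group that ends at 71.6 kb, with top scores of 84.7 and 71.3. Lower H3K4me3 summits lay between group and run, at 77.2 (4.33) and 78.0 kb (8.22) in wild type and 78.0 kb (9.82) in null. Other MBD summits lay between the lower end and the group, among them 13.8 kb (46.7 and 34.3) and 59.7 kb (42.7 and 31.4). Every one of the 45 summits of the list named for null had a counterpart within 1 kb in the list named for wild type, and 45 of the 57 had one the other way. The 12 without one scored 5.08 to 14.3, lay at Msi1, Nes, Hes1 and Notch1, and belong to the longer list.

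**Figure D4:**
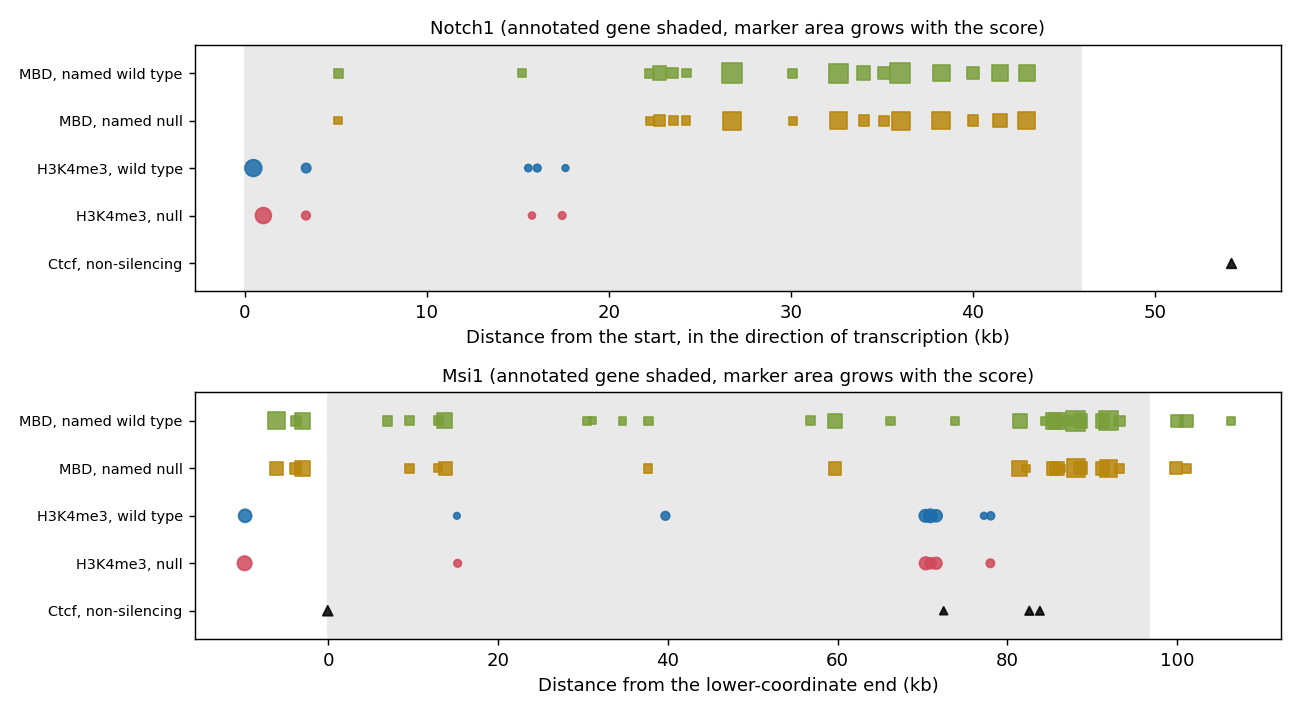
Summits along Notch1 (top, distance in kb from the start in the direction of transcription) and Msi1 (bottom, distance in kb from the lower-coordinate end), with the annotated gene shaded and marker area growing with the score. Squares are MBD (green for the list named for wild type, ochre for the other), circles are H3K4me3 (wild type blue, null red) and triangles are Ctcf (non-silencing list). In Notch1 the MBD run starts 22.3 kb in, past the last H3K4me3 summit at 17.6 kb. Green squares outside the run lie 5.14 and 15.2 kb in.

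H3K27me3 and Smchd1 were listed at 0 of the 10 genes in every list. These lists are short: the window held a summit at 1.24% of coding genes for wild-type and 0.32% for null H3K27me3, and at 1.11% and 3.07% for Smchd1 called at 5e-4 and 5e-3. Among coding genes under 10 kb the shares were 1.7%, 0.479%, 1.1% and 2.54%. A count of 0 of 10 therefore does not set the members apart from other genes. The nearest wild-type H3K27me3 summit lay 174 kb from Nes (score 4.51), 821 kb from Hes5 and 1.47 Mb from Olig2 (6.38), and farther from the other 7. The nearest null one lay at least 2.85 Mb away, at Olig2. The nearest Smchd1 summit of the 5e-4 list lay 276 kb from Msi1 (5.9), 286 kb from Hes5 (4.12) and 338 kb from Notch1 (5.34). In the 5e-3 list Hes5 had the nearest, at 104 kb (5.35).

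Other genes of the Notch pathway and of neural stem cells were counted in the same windows. Of 33 Notch pathway genes, among them the ligands Dll1 and Jag1, the modifier Lfng and the effector Hey1, 31 had wild-type and 32 had null H3K4me3, with a median of 2 summits in either list. Over all coding genes the shares were 67.1% and 66.8%. The ligand gene Jag2 was listed in null only, with 1 summit of 5.95. H3K27me3 was at 0 of the 33. Of 35 other neural stem cell genes, such as Pax6, Sox1 and Slc1a3, all had H3K4me3 in both lists, with a median of 3 summits, and 0 had H3K27me3. With H3K27me3 at 1.24% (wild type) and 0.32% (null) of all coding genes, these counts of 0 do not set either gene list apart. The Notch effector Hey2, the coactivator Maml3 and the progenitor factor Sox4, named after their values were seen, had Smchd1 summits of the 5e-3 list (4.15, 4.70 and 4.12), with 0 of the 5e-4 list. That makes 2 of the 33 Notch pathway and 1 of the 35 other neural stem cell genes, against 3.07% of all coding genes. Among all genes listed here, Smchd1 summits of the 5e-4 list were found only at 2 of the 14 neuron genes, against 1.11% of all coding genes. They were Rbfox3 (4 summits, highest 9.09) and Slc17a6 (2 summits, highest 8.32), also named after their values were seen. The window grows with gene length, and these counts were not matched for length.

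Markers of other cell types served as a check on the label. H3K4me3 was in the window of 10 of 14 neuron, 5 of 8 oligodendrocyte, 4 of 6 astrocyte, 4 of 8 microglia and blood, 3 of 6 endothelium and 4 of 7 mesenchyme genes in wild type, and of all 12 housekeeping genes. Over all coding genes the share was 67.1%, so the neuron, oligodendrocyte and astrocyte counts were near the background, and all these marker lists are short. The highest wild-type score per gene had a median of 49.9 for the members, 41.5 for the other neural stem cell genes and 48.2 for housekeeping genes. The members' median rests in part on the Hes5 window, whose highest summit (46.8) lay near an end of Pank4. The summit inside Hes5 scored 36.5, so the order of members and housekeeping genes is not firm. The median was 14.4 for neuron, 15.2 for oligodendrocyte, 30.2 for astrocyte, 6.86 for microglia and blood, 3.83 for endothelium and 6.17 for mesenchyme genes. Genes without a summit counted as 0 in all these medians. For microglia and blood (4 of 8 marked) and endothelium (3 of 6 marked) the median therefore lay midway between 0 and the lowest marked score. Gfap stands in both the astrocyte and the neural stem cell list. Ptprc of blood was listed in wild type only (13.7) and Tbr1 of cortical neurons in null only (9.08). Wild-type H3K27me3 was listed at the neuron genes Neurod1 (4.08), Neurod2 (4.51), Neurog2 (4.51) and Tbr1 (4.76) and at the mesenchyme genes Twist1 (4.41) and Foxc2 (4.51), and null H3K27me3 at Twist1 alone (3.73). H3K4me3 does not measure expression, and no expression data were used here.

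The 10 genes did not share a single pattern over the 11 lists. The genes closest to their median, by Euclidean distance over log2(1 + highest score in the window), were Garre1 (1.32), Rc3h1 (1.39), Rack1 (1.42), Carnmt1 (1.46) and D030056L22Rik (1.51). The members themselves lay 2.34 (Hes5) to 8.05 (Vim) from that median, and 978 coding genes lay nearer to it than Hes5. Only 5 of the 10 members had Ctcf in the untransduced list, and 5 in the null list. For these lists the median therefore fell between 0 and the lowest marked score (7.13 and 9.31), where no member lies. The 5 named genes had Ctcf scores of 4.44 to 4.46 and 3.88 to 4.76 there, so they match the median and not any one member. The combination that all 10 shared, namely H3K4me3 in both genotypes, Ctcf in the non-silencing list and no H3K27me3 or Smchd1 in any list, was found at 40.2% of coding genes.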

How the data were processed

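Smchd1, H3K4me3, H3K27me3 and Ctcf ChIP-seq and MBD-seq were made in 28 libraries of neural stem cells. Per the submitters' processing notes, MACS2 (version 2) called the peaks on mm10 after CASAVA 1.4. No aligner is named in the sources used here. The deposited lists give 1 summit per peak whose score, from the authors' MACS2 run, is −log10 of either the p-value or the q-value, the files not saying which. Per the labels, each list pools the libraries of its group, so depth per library is unknown and nothing was tested across samples. The lists differ in length, and the non-silencing Ctcf and named-for-wild-type MBD counts of members fell when lists were cut to equal numbers.

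The members and lists were chosen with earlier results of these data known. Summits on unplaced contigs were left out. Genes and their ends came from RefSeq (GRCm38.p6). Strand was known for the 7 members with a promoter sequence, and distances at Hes1, Sox9 and Msi1 are from the lower-coordinate end. The annotated Hes5 start and the start used for its promoter differ. Named were all members, listed genes with H3K4me3 in 1 genotype only or with H3K27me3, the 5 genes closest in pattern, and coding genes nearest to summits. Outside this rule, some listed genes were named as examples of their list, and genes with Smchd1 after their values were seen. Alternatives changed the window, score minimum, list length and distances. Python 3.11.15, numpy 2.4.6, pandas 2.3.3, scipy 1.17.1 and matplotlib 3.10.9 were used. Window counts, nearest distances and runs were tested on simulated data and equalled a brute-force search at 300 of 300 genes.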

Additional observations from a re-analysis of the deposited data

How the results depend on the processing

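Of 78 alternatives over 16 results, 61 left the result near its main value and 17 moved it. For counts of members, medians and spans, moved means by over 1.5 times, and for summits with a counterpart it means outside the exact interval of the main share. Counting summits inside the gene only gave medians of 1 for wild-type and 1 for null H3K4me3, and members with Ctcf numbered 2 (untransduced), 3 (non-silencing) and 2 (null), and those with MBD 2 in each list. A flank of 5 kb gave 4 members with MBD in each list. A score of at least 10 gave a median of 2 wild-type H3K4me3 summits and 3 members with Ctcf in the null list. Equal numbers of highest-scoring summits gave 6 members with Ctcf in the non-silencing list. Counterparts within 250 bp numbered 29 in wild type and 29 in null. A gap of 1 kb gave median H3K4me3 spans of 462.5 bp (wild type) and 423 bp (null), and a gap of 3 kb gave 1997.5 bp in null. These settings admit fewer or more summits by construction. H3K4me3 was listed at 9 or 10 members under every setting tried, and H3K27me3 and Smchd1 at 0. No paired analysis was possible because the results come from pooled lists and from no test, and leaving out a library was not possible for the same reason. The unknown depth of the pooled lists limits every statement that a summit is missing from a list.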
